A study of Mus musculus with 11 samples.

Results

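The genes described are 10 members of the Sox family of transcription factors, Sox1, Sox2, Sox3, Sox4, Sox5, Sox6, Sox8, Sox9, Sox11 and Sox12, a list set by name, with earlier results of these data known, out of the 54752 genes of the count tables. Their Ensembl identifiers were matched to mouse symbols. All 10 passed the filter on low counts, of which nothing follows, since the list leaves out 10 family members (Sry included) and 8 of those did not pass. They were measured in neurons of 3 sensory nuclei of the newborn mouse thalamus, in 4 libraries of the visual relay, the dorsolateral geniculate nucleus (dLG), 4 of the relay of facial touch, the ventral posteromedial nucleus (VPM), and 3 of the auditory relay, the ventral medial geniculate nucleus (MGv). The study compared these nuclei in neurons and in astrocytes, to ask whether both cell types share nucleus-specific genes. The question here is how the Sox genes were distributed among the nuclei in the neurons.

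Every library shared the same background: ICR/CD-1 mice at postnatal day 0, of the genotype Gbx2CreER-IRES-EGFP/+::R26lsl-tdTomato/+, with 4 brains pooled per library. In this line tamoxifen activates a Cre recombinase made from the Gbx2 locus, which switches on the red protein tdTomato. Because Gbx2 is active in early thalamic neurons, the sorted cells are those with a history of Gbx2 expression and not all cells of a nucleus. All animals carried the modified Gbx2 allele, so no library is wild type at that locus. In sorted bulk samples, fewer cells of a type and less RNA per cell cannot be told apart.

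Sox proteins bind the minor groove of DNA through a conserved HMG box and bend it, usually together with a partner factor. The SoxB1 proteins (Sox1, Sox2, Sox3) are best known for keeping neural progenitors undifferentiated, and Sox2 also persists in some mature neurons. The SoxC proteins (Sox4, Sox11, Sox12) activate genes of young neurons, the SoxD proteins (Sox5, Sox6) have no activation or repression domain of their own and shape neuronal subtype and timing in the cortex, and the SoxE proteins (Sox8, Sox9, Sox10) act in glia and neural crest.

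The start of the HMG box is shown for the 5 genes that differed among the nuclei and for Sox9, so that each class is represented. Each stretch is 90 bases of coding sequence, 5′ to 3′ on the gene's strand, from GENCODE M21 transcripts of build GRCm38. The capitals mark the 21 bases that encode the motif found in all 10 members and used to locate the box.

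Sox1 (chr8:12396508-12396597, + strand, exon 1 of 1): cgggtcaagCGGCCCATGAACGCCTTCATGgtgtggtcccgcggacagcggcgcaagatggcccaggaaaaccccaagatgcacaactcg
Sox2 (chr3:34650539-34650628, + strand, exon 1 of 1): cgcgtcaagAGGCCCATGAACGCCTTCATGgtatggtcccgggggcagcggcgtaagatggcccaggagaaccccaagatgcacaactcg
Sox11 (chr12:27342178-27342267, - strand, exon 1 of 1): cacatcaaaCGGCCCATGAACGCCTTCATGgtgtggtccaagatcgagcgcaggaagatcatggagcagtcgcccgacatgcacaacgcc
Sox5 (chr6:143841193-143841282, - strand, exon 13 of 15): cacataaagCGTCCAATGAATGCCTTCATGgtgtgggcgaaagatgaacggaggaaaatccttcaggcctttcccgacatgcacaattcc
Sox6 (chr7:115489682-115489771, - strand, exon 14 of 16): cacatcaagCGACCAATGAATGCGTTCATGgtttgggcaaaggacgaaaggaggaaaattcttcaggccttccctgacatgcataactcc
Sox9 (chr11:112782894-112782983, + strand, exon 1 of 3): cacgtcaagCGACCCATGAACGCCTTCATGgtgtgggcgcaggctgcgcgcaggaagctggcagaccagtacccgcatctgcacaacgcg

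Over a window of 79 residues at the box, members of the same class shared 86.08 to 98.73% of their residues in 8 pairs, and members of different classes 46.84 to 67.09% in 37 pairs. Sox1 and Sox2, which differed in opposite directions between dLG and MGv below, shared 96.2% of residues and 89.9% of bases. Sox5 and Sox6, both highest in dLG, shared 93.7% of residues but 82.3% of bases. Despite this likeness, 0 words of 50 bases, the length of the reads, were common to transcripts of different members, so an error-free read within an annotated transcript could not be assigned to another member. The 6 SoxB1 and SoxC members have a single exon, which makes 60% of the Sox genes against 10.3% of the genes tested.

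Total counts were between 10175653 and 23559130 per library, with the 3 MGv libraries the shallowest. Levels are given as CPM, a gene's counts relative to the total of its library, with totals adjusted for composition by edgeR's TMM factors, and a count of 3 corresponded to 0.127 to 0.295 CPM. The libraries carried neuronal RNA: the 5 neuron markers summed to between 6100 and 8260 CPM, the 5 thalamic neuron markers to between 1730 and 2930 and the 5 cycling progenitor markers to between 1.34 and 5.23. Of the thalamic markers, 3 were called higher in dLG than in MGv (Rora, Lef1 and Slc17a6), against 8.61% of all genes. The other 2, against 7.49% of all genes, were higher in MGv. Gbx2, the locus that drives the label, was 29.3 CPM on average in dLG and 304 in MGv, and Tcf7l2 was 469 and 1170. The markers of GABAergic neurons (7 genes, with Slc32a1 at 0 in dLG and MGv), cortical neurons (4), endothelium (4), mural and meningeal cells (3) and microglia (4) each summed to at most 18 CPM. Oligodendrocyte lineage markers (5 genes, Olig2 at 0 in MGv) summed to 7.91 to 21.9 CPM in dLG, 27.0 to 35.4 in VPM and 65.2 to 74.4 in MGv, with Mbp the largest part in every library. The chaperone gene Hspa8 set 3 libraries apart (MGv replicate 1, VPM replicate 3 and dLG replicate 2), in which it was between 3.05 and 5.55 CPM, against 159 to 580 in the other 8 libraries, and results that change without them are given both ways. The pools also differed in sex. Y-linked genes summed to at most 0.109 CPM in dLG replicates 1 and 3 and VPM replicate 1, and to 20.2 to 102.5 CPM in all others.

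**Figure D1:**
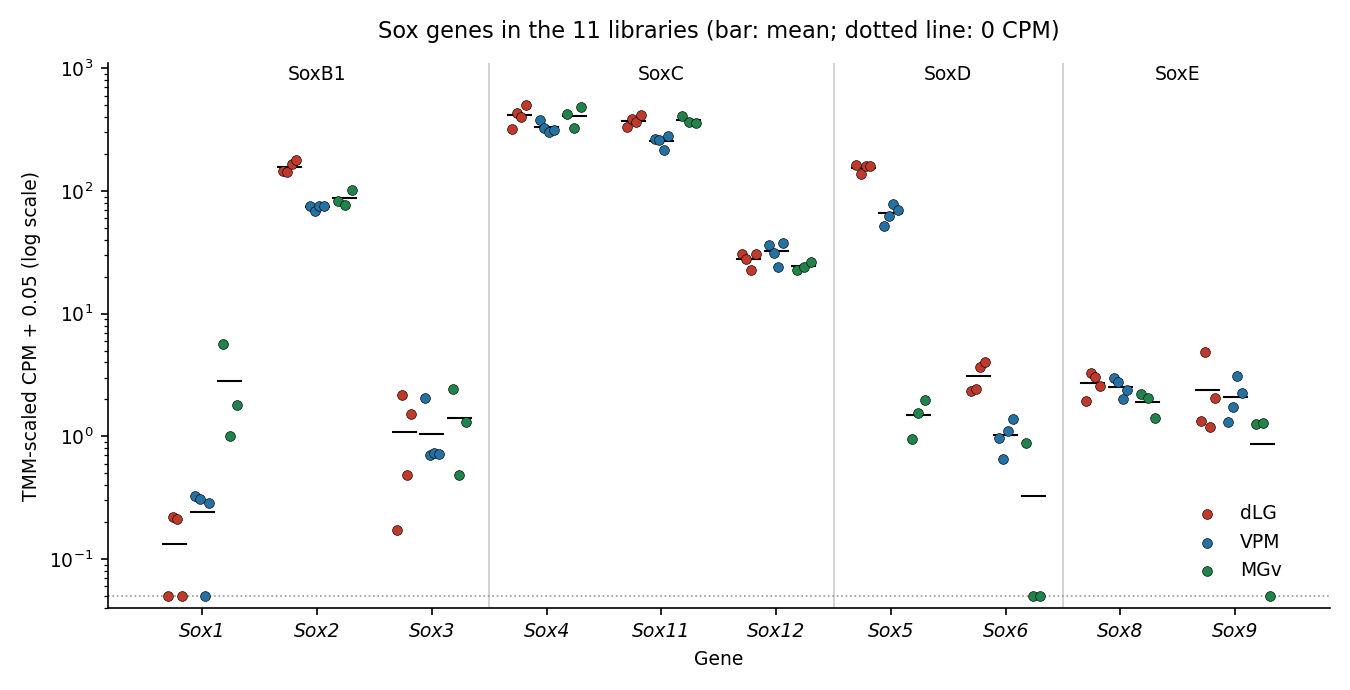
TMM-scaled CPM plus 0.05, on a log axis, of the 10 Sox genes in each of the 11 libraries, coloured by nucleus and ordered by Sox class, with a bar at each mean and a dotted line at 0 CPM. Sox4 and Sox11 lie above 200 CPM in every library, Sox2 between 68.4 and 179, Sox5 drops from 155 CPM on average in dLG to 1.44 in MGv, and Sox1, Sox3, Sox6, Sox8 and Sox9 lie below 6 CPM.

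The Sox genes fell into abundant and scarce members, and the split crossed the classes. Per kilobase of exons, the median level in dLG was 87 CPM per kb for Sox4, 75.6 for Sox2, 45.2 for Sox11, 11.2 for Sox5 and 6.54 for Sox12. The other 5 members were each below 1 CPM per kb by the median, from 0.885 for Sox8 to 0.0169 for Sox1. Sox4 stood first in all 3 nuclei. Its libraries overlapped those of Sox2, the next gene in the order, in dLG, and did not overlap the next gene in VPM (Sox2) or MGv (Sox11).

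Below the leading gene, the order changed between the nuclei. In VPM the median was 66.8 CPM per kb for Sox4, 36.4 for Sox2 and 31.6 for Sox11, and the libraries of Sox2 and Sox11 overlapped. In MGv it was 88 for Sox4, 43.8 for Sox11 and 40.3 for Sox2, the latter pair again overlapping. Sox5 moved from the fourth place in dLG, apart from its neighbours, to the fifth in VPM at 4.6 CPM per kb, where it overlapped Sox12, and to the ninth in MGv at 0.104, where it overlapped Sox9. Scaled by coding length in place of all exons, Sox11 stood first and Sox5 came before Sox12, so the order between abundant members holds only for the length used.

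Summed per kilobase, SoxC genes made up the larger share of Sox RNA in every library. Their share of the summed CPM per kb was 60.4% ± 2.7 in dLG (SD, n = 4), 71.6% ± 2.47 in VPM (n = 4) and 75.5% ± 0.929 in MGv (n = 3). The SoxB1 share, almost all Sox2, was 34.1% ± 2.26 in dLG against 24.4% ± 1.77 in VPM and 24.1% ± 1.01 in MGv. The SoxD share was 4.89% ± 0.726, 3.13% ± 0.718 and 0.0657% ± 0.00183 in the same order, and that of the SoxE genes was below 1% in every library. Between dLG and the other nuclei neither the SoxB1 nor the SoxC shares overlapped, and the SoxD shares of the 3 nuclei did not overlap with each other. These shares must add to 100%, so a fall in one class raises the others.

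**Figure D2:**
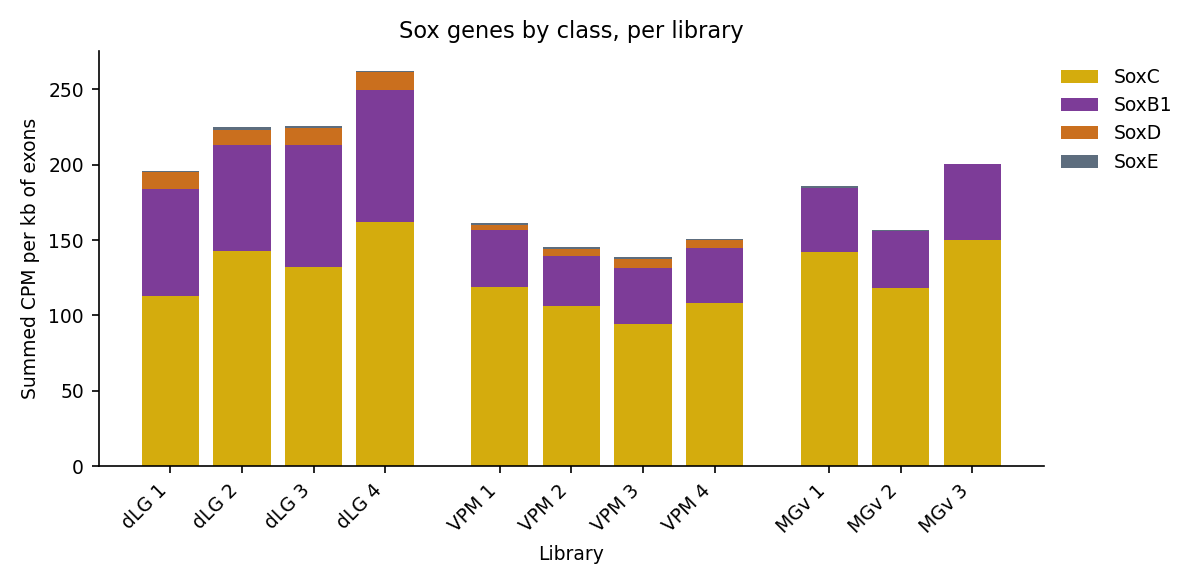
Summed CPM per kb of exons of the Sox genes in each library, stacked by class. The SoxC block is the largest in all 11 libraries, the SoxB1 block is larger in the dLG libraries (70.4 CPM per kb or more) than elsewhere (50.2 or less), and the SoxD block is not visible in MGv, where its share is at most 0.0673%.

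Of the 10 members, 5 differed among the nuclei in the test for any difference (Sox1, Sox2, Sox5, Sox6 and Sox11; edgeR's quasi-likelihood test, adjusted p under 0.1), against 24.2% of all genes tested. Between dLG and VPM 3 of 10 were called, against 10.7% of genes, namely Sox2, Sox5 and Sox11. All 3 were higher in dLG (4.97% of genes were called in that direction) and 0 were higher in VPM (5.74% of genes). Sox6 was also higher in dLG, but did not pass after adjustment (unadjusted p = 0.0224, adjusted p = 0.156, edgeR). DESeq2 and limma voom called 4 members each (the 3 and Sox6). Of all genes, DESeq2 called 6.72% of 33147 and limma voom 27.7% of 15907. Between dLG and MGv 4 of 10 were called, against 16.1% of genes, 3 of them higher in dLG (Sox2, Sox5 and Sox6, with 8.61% of genes in that direction) and 1 higher in MGv (Sox1, 7.49%). Between VPM and MGv 3 of 10 were called, against 19.0% of genes, 1 higher in VPM (Sox5, 10.4%) and 2 higher in MGv (Sox1 and Sox11, 8.56%).

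The median log2 difference over the 10 members was 0.26 for dLG against VPM, 0.36 for dLG against MGv and 0.08 for VPM against MGv, where the medians over all genes tested were 0.01, 0.02 and 0.02. The libraries of the compared nuclei did not overlap for 4 members between dLG and VPM (Sox2, Sox5, Sox6, Sox11), where 14.6% of genes did not overlap. They did not overlap for 4 members between dLG and MGv (Sox1, Sox2, Sox5, Sox6), against 23.8% of genes, and for 5 between VPM and MGv (Sox1, Sox2, Sox5, Sox9, Sox11), against 25.1%. The 3 comparisons share libraries, so they are not independent of each other. Nothing in the labels says whether libraries came from separate litters, so p-values measure the spread between these pools.

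**Figure D3:**
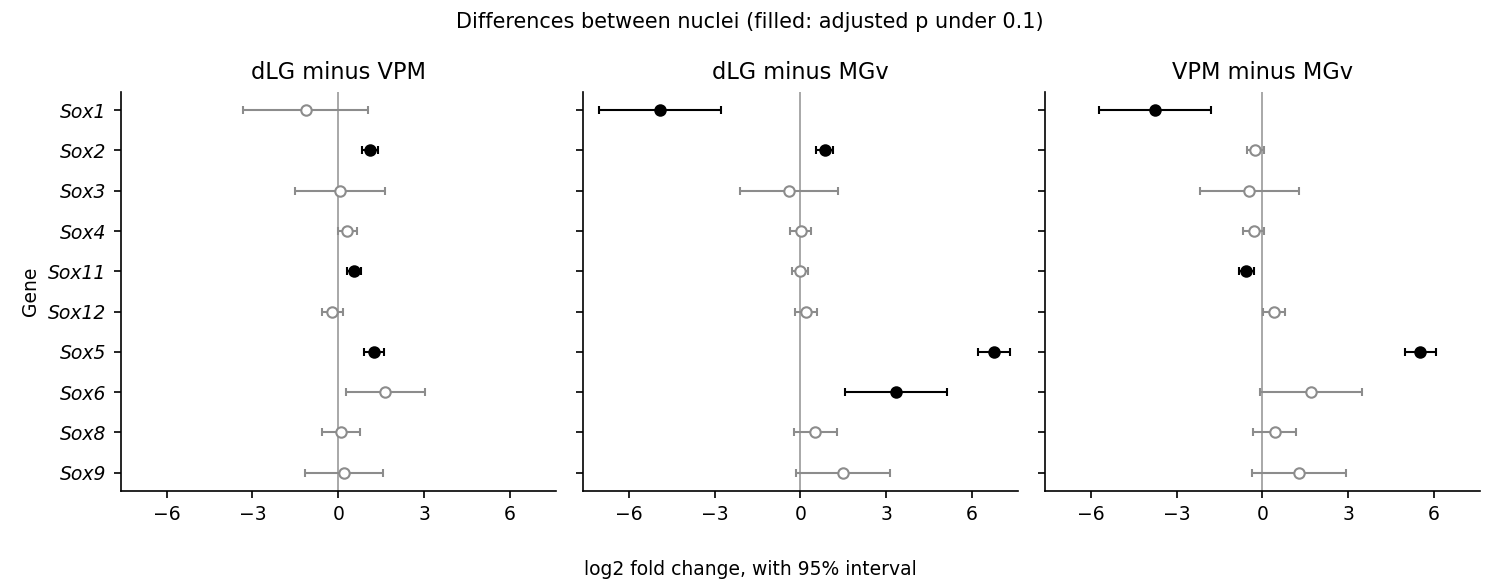
Log2 fold changes of the 10 Sox genes with 95% intervals for dLG minus VPM, dLG minus MGv and VPM minus MGv, filled where the adjusted p was under 0.1. The widest departures are Sox5 at 6.77 and 5.53 against MGv and Sox1 at -4.90 and -3.76, and the short intervals around 0 for Sox4 and Sox11 between dLG and MGv contrast with the long ones of Sox3 and Sox9.

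Among the SoxB1 genes, Sox2 was the abundant one and was enriched in dLG. Its level was 145, 143, 166 and 179 CPM in dLG, 74.9, 68.4, 75.9 and 75.0 CPM in VPM and 82.8, 77.2 and 101 CPM in MGv. Every dLG library was above every library of the other nuclei, with a gap between the lowest dLG library and the highest MGv library. The mean of 158 ± 17.3 CPM in dLG was 2.15-fold that of VPM (73.5 ± 3.48), a log2 difference of 1.11 ± 0.13 (SE, adjusted p = 9.73e-05, edgeR). It was 1.82-fold that of MGv (87.1 ± 12.6), a log2 difference of 0.86 ± 0.14 (adjusted p = 0.000948, edgeR). Both calls were kept in all 26 alternative fits. VPM lay below MGv without overlap, but the log2 difference of -0.24 (95% interval -0.53 to 0.05) did not pass (adjusted p = 0.266, edgeR), and it passed after offsets for GC content and exon length (-0.48, adjusted p = 0.0489).

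Sox2 is also a gene of astroglia and their progenitors, so those markers are given beside it. The 11 astroglia and radial glia markers summed to 164 to 286 CPM in dLG, 376 to 480 in VPM and 160 to 282 in MGv, with Gfap at 0 in dLG and at most 0.0865 CPM elsewhere. The sum was highest in VPM, where Hes1, a Notch target, made up much of it. Hes1 was 44.4 to 90.6 CPM in dLG, 208 to 239 in VPM and 0.975 to 5.44 in MGv. Slc1a3, the glutamate transporter of astrocytes, was 1.10 to 17.9 CPM in dLG, 3.22 to 10.3 in VPM and 45.4 to 90.2 in MGv. The part of these genes in the Sox2 difference was not tested.

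Sox1, the closest relative of Sox2 by its HMG box, was highest in MGv and not in dLG, at far lower levels. It had 0, 4, 3 and 0 counts in dLG, 6, 6, 0 and 5 in VPM, and 75, 11 and 18 in MGv, or 5.63, 0.964 and 1.75 CPM in the latter. All MGv libraries were above all others, but MGv replicate 1 alone held most of the counts, and it is one of the libraries low in Hspa8. The fitted log2 difference was -4.90 ± 1.00 for dLG minus MGv (adjusted p = 0.00494, edgeR) and -3.76 ± 0.91 for VPM minus MGv (adjusted p = 0.0153, edgeR). With so few counts these sizes depend on the prior count of the fit, and Sox1 passed the filter on low counts only through MGv. Without MGv replicate 1 the VPM difference was no longer called (-2.71, adjusted p = 0.138, edgeR), nor was it without the 3 libraries low in Hspa8 (-2.37, adjusted p = 0.128, edgeR), while the dLG difference stayed called in all 25 alternative fits that tested it. Its size ran from -3.86 without MGv replicate 1 (adjusted p = 0.0516, edgeR) to -6.33 with counts thinned to the smallest total. Sox1 exons overlap a small RNA gene, Gm25239, over 1.78% of their length on the same strand, and that gene had 0 counts. Reads that lie in both genes cannot be told apart by strand, so this 0 does not show that Sox1 lost no reads.

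Sox3, the X-linked SoxB1 gene, varied more within nuclei than between them. It was 0.122 to 2.10 CPM in dLG, 0.649 to 1.99 in VPM and 0.438 to 2.40 in MGv, and the libraries of every pair of nuclei overlapped. The log2 difference between dLG and VPM was 0.07 with a 95% interval from -1.51 to 1.65, so at 2 to 49 counts per library a several-fold difference in either direction was not detectable.

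Long noncoding genes span both Sox1 and Sox2 on the same strand, without sharing exons with them. Sox1ot, which runs from chr8:12385771-12436768, had 30, 19 and 20 counts in MGv and 0 to 6 in the other libraries. It was called lower than MGv in dLG (log2 difference -4.64 ± 1.04, adjusted p = 0.00894, edgeR) and in VPM (-4.06 ± 1.00, adjusted p = 0.0161, edgeR). Like Sox1, it passed the filter only through MGv, and these sizes depend on the prior count. Unlike for Sox1, its 3 MGv libraries lay close together, at 2.25, 1.67 and 1.94 CPM. Sox2ot, which spans Sox2 at chr3:34104270-34682619, did not follow it: it was 39.5 ± 14.8 CPM in dLG, 46.5 ± 10.3 in VPM and 36.3 ± 19.5 in MGv, and was called in no comparison (adjusted p 0.540 to 0.878, edgeR).

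**Figure D4:**
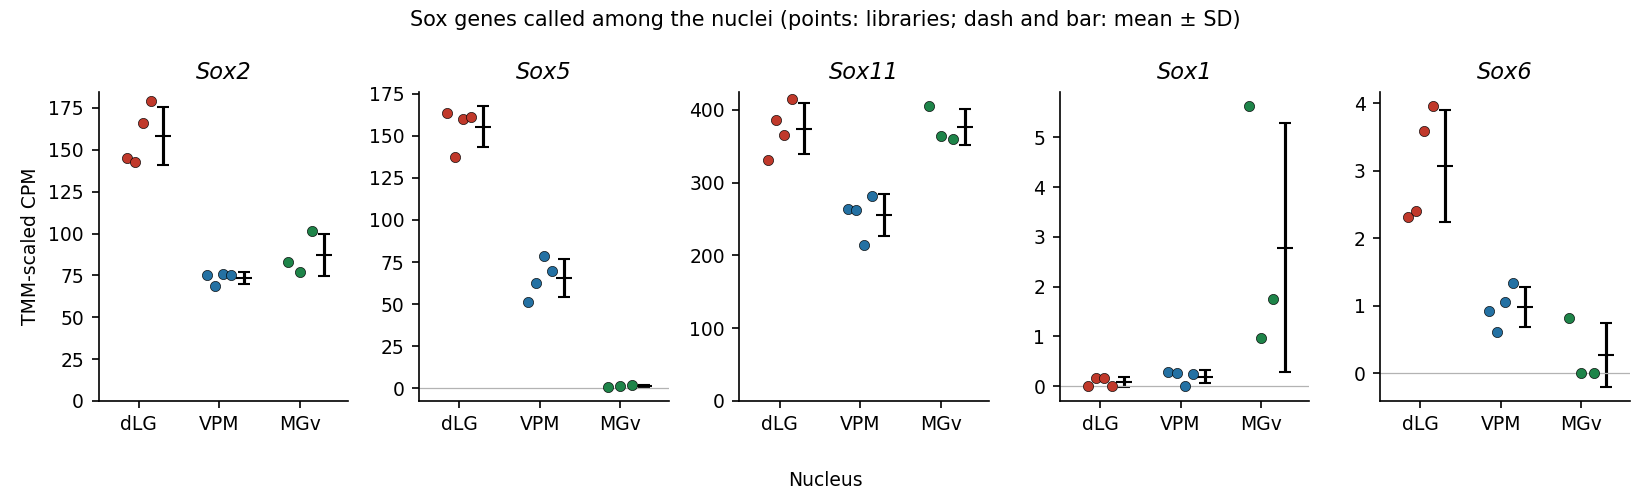
TMM-scaled CPM of the 5 Sox genes called among the nuclei, with 1 point per library and the mean ± SD beside the points, on a linear axis per gene. Sox2 and Sox5 are highest in dLG, Sox11 is lowest in VPM at 214 to 281 CPM, Sox1 is above 0.9 CPM only in MGv, where 1 library reaches 5.63, and Sox6 is at 0 in 2 of the 3 MGv libraries.

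Of the SoxD genes, Sox5 had the largest differences of any member against MGv and formed a graded series of dLG, VPM and MGv. It was 163, 137, 160 and 161 CPM in dLG, 51.5, 62.5, 78.6 and 69.9 CPM in VPM and 0.900, 1.49 and 1.94 CPM in MGv. The 3 sets of libraries were separate from each other. The mean of 155 ± 12.3 CPM in dLG was 2.37-fold that of VPM (65.6 ± 11.5), a log2 difference of 1.24 ± 0.17 (adjusted p = 0.00034, edgeR). Against MGv (1.44 ± 0.523 CPM, 12 to 20 counts per library) the log2 difference was 6.77 ± 0.26 for dLG (109-fold, adjusted p = 5.26e-09, edgeR) and 5.53 ± 0.25 for VPM (46.1-fold, adjusted p = 5.11e-08, edgeR). All 3 calls were kept in all 26 alternative fits.

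The balance of Sox5 to Sox2 within a library was alike in dLG and VPM and far lower in MGv. The CPM ratio of Sox5 to Sox2, which is not scaled by length and so compares nuclei and not the genes, was 0.987 ± 0.0941 in dLG (n = 4) and 0.893 ± 0.148 in VPM (n = 4), with overlapping libraries. It was 0.0165 ± 0.00482 in MGv (n = 3), where Sox2 was at 87.1 CPM on average. Sox5 exons overlap the antisense gene Sox5os1 over 9.25% of their length, and that gene had 0 counts in all libraries. As the strand setting of the counting is not known, this 0 does not show that Sox5 lost no reads there.

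Sox6, the partner of Sox5 in many tissues, ran in the same order at far lower levels. It was 2.31, 2.40, 3.59 and 3.96 CPM in dLG, 0.926, 0.605, 1.05 and 1.33 CPM in VPM, and 0.825, 0 and 0 CPM in MGv, where the only counts were 11 in replicate 1. The dLG libraries were above all others, and VPM and MGv overlapped through that single library. Only the difference between dLG and MGv was called, at a log2 value of 3.34 ± 0.84 (adjusted p = 0.0175, edgeR), a size that depends on the prior count because 2 of the MGv libraries were at 0 (without MGv replicate 1 the fitted value was 8.89, against libraries with no count). The dLG to VPM difference was 1.65 ± 0.64 (3.13-fold, adjusted p = 0.156, edgeR) and passed in 6 of 25 alternatives, DESeq2, limma voom and the fit without the 3 libraries low in Hspa8 among them. The VPM to MGv difference, 1.70 ± 0.83 (adjusted p = 0.208, edgeR), passed in 4, including without MGv replicate 1.

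The SoxC genes led the summed Sox RNA per kb, and Sox11 among them was lower in VPM. It was 330, 386, 365 and 414 CPM in dLG, 264, 262, 214 and 281 CPM in VPM and 405, 364 and 360 CPM in MGv. All VPM libraries were below all others, while dLG and MGv overlapped. The mean was 374 ± 35.4 CPM in dLG, 255 ± 28.7 in VPM and 376 ± 25 in MGv. VPM was 1.46-fold below dLG (log2 difference 0.55 ± 0.12, adjusted p = 0.012, edgeR) and 1.47-fold below MGv (-0.56 ± 0.13, adjusted p = 0.0114, edgeR). Between dLG and MGv the log2 difference was -0.01 with a 95% interval from -0.29 to 0.27.

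The 6 genes of the dissociation and stress response also had their lowest sum in VPM, with 481 to 641 CPM in dLG, 322 to 391 in VPM and 539 to 711 in MGv. Of the 6, 2 were called higher in dLG than in VPM (Fos and Egr1), against 4.97% of all genes. Between VPM and MGv 3 were called higher in MGv (Fos, Jun and Egr1), against 8.56% of all genes. The others were not called, and Dnajb1 was 133 CPM on average in both dLG and VPM. The part of these genes in the Sox11 difference was not tested. The Sox11 calls against VPM were kept without the 3 libraries low in Hspa8.

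Sox4, the first member by CPM per kb of exons, had the same tendency as Sox11 with a wider spread, and no comparison passed. It was 320 to 504 CPM in dLG, 304 to 381 in VPM and 329 to 483 in MGv, with means of 414 ± 76.5, 331 ± 34.1 and 411 ± 77.4 CPM. The log2 difference between dLG and VPM was 0.32 (95% interval -0.01 to 0.66, adjusted p = 0.268, edgeR), and between VPM and MGv it was -0.31 (-0.67 to 0.05, adjusted p = 0.253, edgeR). Of its exonic bases 54.6% overlap Gm26735 on the opposite strand. Whether the counting used strand was not stated, so reads of the overlap cannot be assigned with certainty. The CPM per kb of Sox4, its first place and the SoxC share use its full exon length and carry the same uncertainty. Gm26735 itself was 7.19 to 19.8 CPM and did not differ among the nuclei (adjusted p = 0.519, edgeR). The ratio of Sox4 to Sox11 in CPM, again only for comparing nuclei, was 1.10 ± 0.105 in dLG, 1.30 ± 0.153 in VPM and 1.09 ± 0.223 in MGv, with overlapping libraries.

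Sox12, the least abundant SoxC gene, went the other way on average: it was 27.9 ± 3.67 CPM in dLG, 32.2 ± 6.2 in VPM and 24.4 ± 1.73 in MGv. The libraries of every pair of nuclei overlapped, and VPM against MGv gave a log2 difference of 0.40 (95% interval 0.01 to 0.80, adjusted p = 0.174, edgeR). That difference passed with limma voom (adjusted p = 0.0358), after offsets for GC content and exon length (0.0338 by edgeR) and without VPM replicate 3 (0.0452 by edgeR).

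The SoxE genes were scarce in all nuclei and edgeR's test called neither of them. Without the filter on low counts, Sox9 passed between dLG and MGv (log2 difference 1.52, adjusted p = 0.0958, edgeR). Sox8 was 1.89 to 3.26 CPM in dLG, 1.98 to 2.92 in VPM and 1.36 to 2.18 in MGv, and the largest log2 difference, between dLG and MGv, was 0.52 (95% interval -0.23 to 1.27). Its exons overlap 2810468N07Rik on the opposite strand over 10.6% of their length, and that gene was 0.822 to 10.5 CPM, so a part of the Sox8 counts is uncertain. Sox9, which drives gliogenesis and marks astrocytes in the adult brain, was 1.28, 4.85, 1.14 and 2.002 CPM in dLG, 1.25, 1.69, 3.04 and 2.19 CPM in VPM and 1.20, 1.23 and 0 CPM in MGv. Its VPM libraries were all above its MGv libraries, with a log2 difference of 1.29 ± 0.77 (adjusted p = 0.301, edgeR), and the intervals at these counts, 0 to 113 per library, allow a several-fold difference. Sox10, the SoxE gene of oligodendrocytes, was not among the members and had at most 1 count in any library, which is below the limit of 3 counts.

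Among the other Sox genes of the table, Sox13 and Sox14 passed the filter on low counts. Sox13, a SoxD gene, was 10.6, 5.67, 5.39 and 13.4 CPM in dLG, 1.53, 1.47, 0.929 and 1.47 in VPM and 4.20, 7.10 and 3.88 in MGv. Its VPM libraries were below all others. It differed between dLG and VPM (log2 difference 2.68 ± 0.36, adjusted p = 0.000371, edgeR) and between VPM and MGv (-1.89 ± 0.38, adjusted p = 0.00486, edgeR), so it was lowest in VPM, where Sox5 and Sox6 were intermediate. Sox14, a SoxB2 gene, had 7, 23, 21 and 2 counts in dLG, 0 to 3 in VPM and 2, 9 and 0 in MGv, and dLG against VPM was called (adjusted p = 0.073, edgeR) although the libraries overlapped. The remaining Sox genes had at most 10 counts in a library.

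POU factors and Pax6 are known partners of SoxB1 proteins on DNA, and 4 of the 5 listed were tested. Pou3f3 was higher in dLG than in VPM, like Sox2 (6.04 against 2.94 CPM on average, log2 difference 1.04 ± 0.33, adjusted p = 0.0752, edgeR). Unlike Sox2, it was not called between dLG and MGv (5.03 CPM in MGv, log2 difference 0.26, adjusted p = 0.725, edgeR). Pou3f2 was lower in dLG than in MGv (0.430 against 2.84 CPM, -2.71 ± 0.77, adjusted p = 0.0331, edgeR), with 1 MGv library at 6.21 CPM and the other two at 1.35 and 0.964. Pax6 was higher in VPM than in MGv (0.792 against 0.0897 CPM, 3.10 ± 1.04, adjusted p = 0.0673, edgeR). It passed the filter on low counts only through VPM and had 0 to 2 counts in MGv, so this size depends on the prior count. Pou3f4 was called in no comparison, and Pou3f1 did not pass the filter. The median log2 difference of the 4 was -0.62 for dLG against VPM, -0.34 for dLG against MGv and -0.74 for VPM against MGv.

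Of 10 genes described as downstream of Sox factors, 7 were tested, and calls against MGv were all in its favour. Against MGv 3 were lower in dLG and the same number in VPM, namely Nes, Bcl11b and Mbp, where 7.49% and 8.56% of all genes were called in those directions. Between dLG and VPM 1 was called, Mbp, the myelin basic protein gene, which was lower in dLG, as were 5.74% of all genes. The median log2 difference of the 7 was -0.10 for dLG against VPM, -0.27 for dLG against MGv and -1.04 for VPM against MGv. Nes, the progenitor filament gene regulated by SoxB1 proteins, was 2.67 to 4.38 CPM in dLG, 3.35 to 5.92 in VPM and 8.51 to 10.1 in MGv. It was lower than MGv in dLG by a log2 value of -1.46 ± 0.28 (adjusted p = 0.00335, edgeR), the opposite direction to Sox2.

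Bcl11b, which Sox5 restrains in early cortical neurons, was 0.258 to 0.912 CPM in dLG, 0.713 to 1.61 in VPM and 1.50, 1.75 and 7.87 in MGv. Its difference between dLG and MGv was -2.51 ± 0.62 (adjusted p = 0.0164, edgeR), and 1 MGv library carried most of it. Tubb3 and Dcx, neuronal genes that SoxC proteins activate, were not called between the nuclei. Tubb3 was 2312 to 3534 CPM and Dcx 291 to 414 CPM over the 11 libraries. Mbp is also the oligodendrocyte marker that was called higher in MGv, and of the other markers of that list Olig1 was 0.851 to 3.85 CPM over the 11 libraries, Cspg4 0 to 0.991, Olig2 0 to 0.389 and Pdgfra 0 to 0.381. The part of oligodendrocyte RNA in this difference was not tested.

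Genes whose log2 CPM followed each called member most closely over the 11 libraries were searched among 8875 genes with a mean of at least 10 CPM. For Sox5 these were Zfp521 (r = 0.993, mean 56.2, 33.9 and 7.15 CPM in dLG, VPM and MGv), Smyd1 (0.985) and Dlgap1 (0.985). For Sox2 they were Cdca7 (r = 0.973, mean 65.1, 1.14 and 4.14 CPM), Grm8 (0.953) and Sp3 (0.95). For Sox11 they were Dlk1 (r = 0.974, mean 15.8, 1.87 and 16.9 CPM), Aff3 (0.951) and Pou2f2 (0.95).

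For the scarce members the nearest genes were Hlf (r = 0.96), Slc7a8 (0.938) and Igf2bp3 (0.934) for Sox6, and Usp5 (0.974), Rrp1 (0.944) and Fign (0.941) for Sox1. Usp5 was 147, 157 and 185 CPM on average, so the likeness to Sox1 lies in the shape over libraries and not in the size of the change. These correlations were the highest of many, over libraries that share their nucleus and depth, and are given as a description.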

How the data were processed

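RNA was measured in 11 libraries of tdTomato-sorted neurons (dLG 4, VPM 4, MGv 3), amplified with the SMARTer Ultra Low RNA kit and read as single-end reads of 50 bases. The authors deposited raw counts of reads in Ensembl genes, made with Trim Galore 0.6.1, STAR 2.7.0d (build GRCm38/mm10) and featureCounts of Subread 1.6.4 (versions per the submitters' processing notes). The strand setting and the treatment of reads with several alignments are not given in the sources used here.

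Groups came from the sample titles. Symbols, positions, exon lengths and HMG box stretches came from GENCODE M21, where 54723 of 54752 identifiers had a record. Nuclei were compared by edgeR's two-sided quasi-likelihood test (version 4.0.16 in R 4.3.3) on the 15907 genes kept by filterByExpr, with TMM scaling, all 11 libraries in a model of 3 group means, Benjamini-Hochberg adjustment over all genes tested and a threshold of 0.1. The SE of a log2 fold change is its size over the root of its F statistic. The fit was tested on simulated counts. Alternatives were DESeq2 1.42.0, limma 3.58.1 (voom), robust edgeR, other scaling, filters and thresholds, only the nuclei compared, the replicate block, GC and length offsets, thinning, a Y-linked covariate, and libraries left out.

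Depth was 10.2 to 23.6 M counts per library. Reads carried no molecular identifiers, so the floor of 3 counts covers counting error only. Named genes are the members, other Sox genes called or reaching 1 CPM, exon-overlapping genes, up to 4 called genes each of the partner and downstream lists, and the 3 genes most like each called member; Sox10, the Sox lncRNA genes and single marker genes were named besides. Members and lists were chosen with earlier results of these data known. Residue identities were computed from translated transcripts, promoters are not used here, and 1 gene of the lists is not reported here.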

Additional observations from a re-analysis of the deposited data

Results flagged for a closer look

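In each nucleus with 4 libraries, the highest and lowest library of each Sox gene was compared with the rest of its group. In 4 of 20 such sets a library stood apart by Dixon's criterion (a gap over 0.829 of the whole range), and chance does so in about 1 of 20 sets. Sox1 in VPM replicate 3, a library low in Hspa8, was at 0 CPM against 0.237 to 0.278 in the other VPM libraries. Those values are only 5 to 6 counts, close to the floor of 3 counts. Sox2 in VPM replicate 2 was at 68.4 CPM against 74.9 to 75.9, a difference that is small beside the gap to dLG. Sox3 in VPM replicate 1 was at 1.99 CPM against 0.649 to 0.681. Sox5 in dLG replicate 2, a library low in Hspa8, was at 137 CPM against 160 to 163, still above every VPM library. The 3 libraries of MGv were too few for this criterion.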

How the results depend on the processing

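No call of Sox2, Sox5 or Sox11 was lost in any fit. The number of members called moved by more than 1.5 times from 4 to 2 for dLG against MGv and from 5 to 3 for any difference with at least 10 counts in every library, which drops Sox1 and Sox6 from the genes tested. With that filter 16.1% and 25.5% of all genes tested were called. For VPM against MGv it moved from 3 to 5 with limma voom, with GC and length offsets, and with those offsets and the replicate block, in which 25.2%, 20.1% and 18.2% of all genes were called. Leaving out 1 library gave 3 to 4 members for dLG against VPM, 4 for dLG against MGv, 3 to 4 for VPM against MGv and 5 to 6 for any difference. The share of all genes called in those fits was 6.95 to 14%, 11.4 to 20.9%, 12.2 to 20.4% and 18.8 to 29.4% in the same order. Same-numbered libraries did not deviate together on average (mean r 0.0155 over 10 pairs, from -0.20 to 0.48). Over 30 other pairs the mean was -0.00506, from -0.31 to 0.27. The r of 0.48 was between dLG replicate 4 and VPM replicate 4. The highest values of the other pairs were among the libraries low in Hspa8 (0.27, 0.26 and 0.23). The replicate block alone called 3, 4, 3 and 5 members, against 9.2%, 13.6%, 16.9% and 20.9% of all genes. With only the 2 nuclei compared, no test for any difference was possible.

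Direction turned only for log2 differences that no fit called. For dLG minus VPM, limma voom turned Sox3 to -1.17 and Sox8 to -0.17, leaving out the 3 libraries low in Hspa8 turned Sox3 to -0.66, Sox8 to -0.10 and Sox9 to -0.20, a Y-linked covariate turned Sox3 to -0.041, and the replicate block turned Sox9 to -0.076 alone and -0.057 with GC and length offsets. For dLG minus MGv, Sox4 turned to -0.001 with DESeq2 size factors, -0.027 with the replicate block, -0.044 with GC and length offsets, -0.051 with both and -0.004 without the low-Hspa8 libraries. Sox11 turned there to 0.024 with total counts, 0.015 with no filter, 0.021 without the low-Hspa8 libraries and 0.031 with the Y-linked covariate. For VPM minus MGv, Sox3 turned to 0.10 with voom and 0.36 without the low-Hspa8 libraries. Leaving out single libraries gave -0.54 to 0.63 (Sox3), -0.027 to 0.22 (Sox8) and -0.48 to 0.46 (Sox9) for dLG minus VPM, -0.99 to 0.31 (Sox3), -0.13 to 0.14 (Sox4) and -0.066 to 0.051 (Sox11) for dLG minus MGv, and -1.02 to 0.25 (Sox3) for VPM minus MGv. The causes were not tested.

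Low levels, under 6 CPM, limit the precision of the SoxE genes, Sox1, Sox3 and Sox6.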
